A study of Mus musculus with 27 samples.

Results

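The regions described here are the UTX peaks of wild-type (WT) mouse embryonic fibroblasts (MEF) treated with doxycycline (dox) that overlapped, by at least 1 bp, an H3K4me3 peak of the same cells. They numbered 267 of the 3540 UTX peaks in that list, or 7.54% (95% Wilson interval 6.72 to 8.46), and the other 3273 lay away from H3K4me3. The 267 UTX peaks fell on 264 H3K4me3 peaks, which were 1.34% of the 19689 H3K4me3 peaks of those cells. Of these H3K4me3 peaks, 261 carried 1 UTX peak and 3 carried 2. The sites were chosen by the measured UTX and H3K4me3 peaks of dox-treated WT cells, so the scores and widths of both in that state are given as a description only.

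UTX (Kdm6a) is an X-linked demethylase that removes methyl groups from lysine 27 of histone H3. It also belongs to the MLL3/MLL4 complexes, which methylate lysine 4 of the same histone. H3K27me3 is laid down by Polycomb repressive complex 2 and is typical of silent developmental genes, while H3K4me3 is found at the start of genes that are active or poised. During reprogramming, fibroblast genes are silenced and pluripotency genes, many of them without H3K4me3 in fibroblasts, are switched on.

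The study mapped H3K4me3, H3K27me3 and UTX by chromatin immunoprecipitation and sequencing, and 19 peak lists were used. The fibroblasts were of the V19-OSKM strain, which carries dox-inducible Oct4, Sox2, Klf4 and c-Myc, in the untreated cells too. They were Utx+/Y (WT) or Utx-/Y (Utx-KO), each with and without dox, and fibroblasts and ES cells were grown in 2i/LIF. ES cells (ESC) were V6.5, Utx+/Y or Utx-/Y, without dox, and 2 aberrant iPS clones came from Utx-/Y V19-OSKM cells and were without dox. Neither the length of dox treatment nor the number of animals behind a culture is stated in the labels. Each state and mark had 1 library apart from the 2 clones, so differences between states have no replicate check and were not tested. UTX was mapped in untreated WT MEF, dox-treated WT MEF and WT ESC. No UTX list of Utx-KO cells was used here, so whether a UTX peak depends on the protein was not tested, and all UTX peaks are peaks of the antibody signal. Cell identities were taken as labelled, because no gene annotation of the mouse build of the files, mm9, was used and regions are named by position (1-based, mm9).

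The authors gave each peak a score that is higher for better supported peaks, and its scale is not stated in the labels. The scores of the UTX peaks on H3K4me3 ran from 50.1 to 110 with a median of 57.1 (interval of the median 56.1 to 58.7), and the UTX peaks away from H3K4me3 had a median of 55.9 (55.6 to 56.2) and a highest score of 131. A score of at least 100 was reached by 4 peaks on H3K4me3 (1.5%) and by 12 away from it (0.367%). Of the 885 UTX peaks with the highest scores, 10.4% (8.55 to 12.6) lay on H3K4me3. In the 3 following groups of 885 the shares were 6.55, 6.33 and 6.89%. The UTX peaks on H3K4me3 had a median width of 587 bp, against 571 bp for the others. One of them, at chr17:39979741-39986263, was 6523 bp wide and stood far apart from the rest.

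The overlap was complete for 186 of the 267 UTX peaks and covered at least 50% of the UTX peak in 226. Just inside the rule, 15 UTX peaks overlapped H3K4me3 by 100 bp or less, the smallest by 2 bp. Just outside it, 10 UTX peaks lay within 100 bp of an H3K4me3 peak and 93 within 1000 bp.

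The leading 10 UTX peaks fell into 2 kinds of site. At 6 of them the H3K4me3 peak scored from 1494 to 2542 with dox and was found in all 7 other H3K4me3 lists. All 7 held it at 186 of the 264 sites (70.5%) and at 54.5% of H3K4me3 peaks without UTX. The other 4 had weak H3K4me3, with scores from 52.6 to 330, which neither untreated WT MEF nor dox-treated Utx-KO MEF carried. Neither of these 2 lists had it at 12 sites found in WT ESC (4.55%) and 23 not found there (8.71%). Without UTX those shares were 5.25 and 15.1%. The 2 kinds do not cover all sites, since 16 had H3K4me3 in WT ESC and dox-treated Utx-KO MEF but not in untreated WT MEF. The first kind is shown by chr11:61317911-61319063 (UTX score 107). H3K4me3 there scored 1494 in dox-treated WT MEF, 231 in untreated WT MEF, 650 in untreated Utx-KO MEF, 1181 in dox-treated Utx-KO MEF, 1320 in WT ESC and 1124 in ESC without Utx. The mark was present in all of these lists, whose scores are not on a common depth and are not ranked against each other.

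At chr4:88365119-88366168 (UTX score 96.7) the H3K4me3 peak was 5201 bp wide with dox in WT cells. Its summed width was 4969 bp in untreated WT MEF, 6007 bp in dox-treated Utx-KO MEF and 2651 bp in WT ESC. The second kind is shown by the highest UTX score, 110, at chr6:124434645-124435527. Its H3K4me3 scored 212 in dox-treated WT MEF, 238 in WT ESC, 223 in Utx-KO ESC and 352 and 545 in the clones, and had no peak in the other 3 fibroblast lists.

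**Figure D1:**
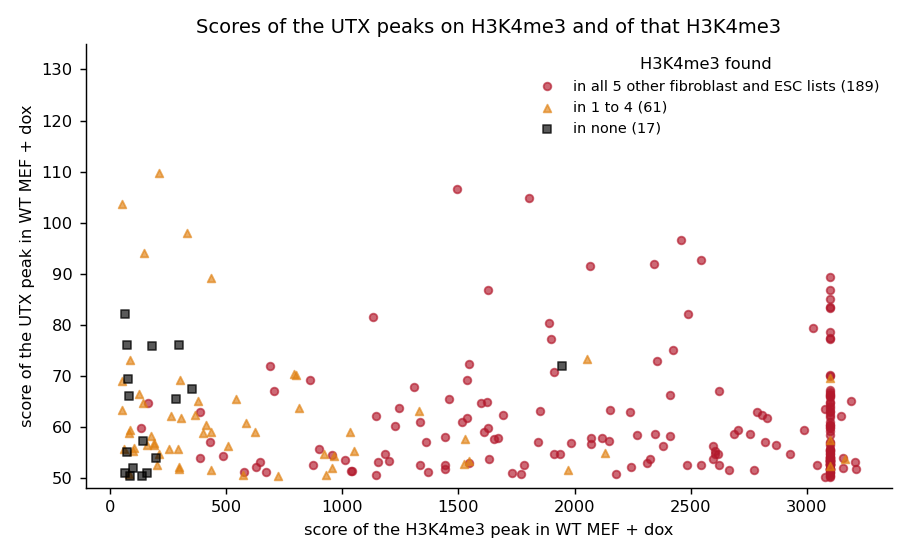
Score of each of the 267 UTX peaks (vertical axis) against the score of the H3K4me3 peak it lies on in dox-treated WT MEF (horizontal axis), both the authors' peak scores. Point shape gives the number of the 5 other fibroblast and ESC H3K4me3 lists that also held the H3K4me3 peak: 189 UTX peaks lay on H3K4me3 found in all 5, 61 on H3K4me3 found in 1 to 4 and 17 on H3K4me3 found in none, the last mostly at low H3K4me3 scores. Many H3K4me3 peaks share a score of 3100, which gives the column of points.

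Most H3K4me3 that carried UTX with dox was already there in untreated fibroblasts and was also there in ES cells. A peak of untreated WT MEF was met by 209 of the 264 (79.2%, interval 73.9 to 83.6), where the background over all 19689 H3K4me3 peaks was 64.5%. WT ESC had H3K4me3 at 226 (85.6%, 80.9 to 89.3; background 73.5%). Dox-treated Utx-KO MEF had it at 229 (86.7%, 82.1 to 90.3; background 78.6%). The shares were 78.8% in untreated Utx-KO MEF (background 66.4%) and 85.2% in Utx-KO ESC (background 73.9%). In the iPS clones they were 87.1% and 92.8% (mean 90.0 ± 4.02%, SD, n = 2; backgrounds 78.6% and 85.7%). H3K4me3 was found in all 5 other fibroblast and ESC lists at 188 of the 264 sites, or 71.2%, against a background of 55%.

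These shares were above those of H3K4me3 peaks without UTX by 14.9 percentage points in untreated WT MEF (interval 9.53 to 19.4), 12.3 in WT ESC (7.47 to 16) and 8.30 in dox-treated Utx-KO MEF (3.64 to 11.9). Intervals cover counting error over regions only, and neighbouring peaks are not independent. The excess moved with the width of the peaks. When the peaks without UTX were weighted to the same 4 width classes, it was 0.58 points in untreated WT MEF, 0.54 in WT ESC and -1.75 in dox-treated Utx-KO MEF. The weighted shares all lay within the intervals of the sites with UTX.

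**Figure D2:**
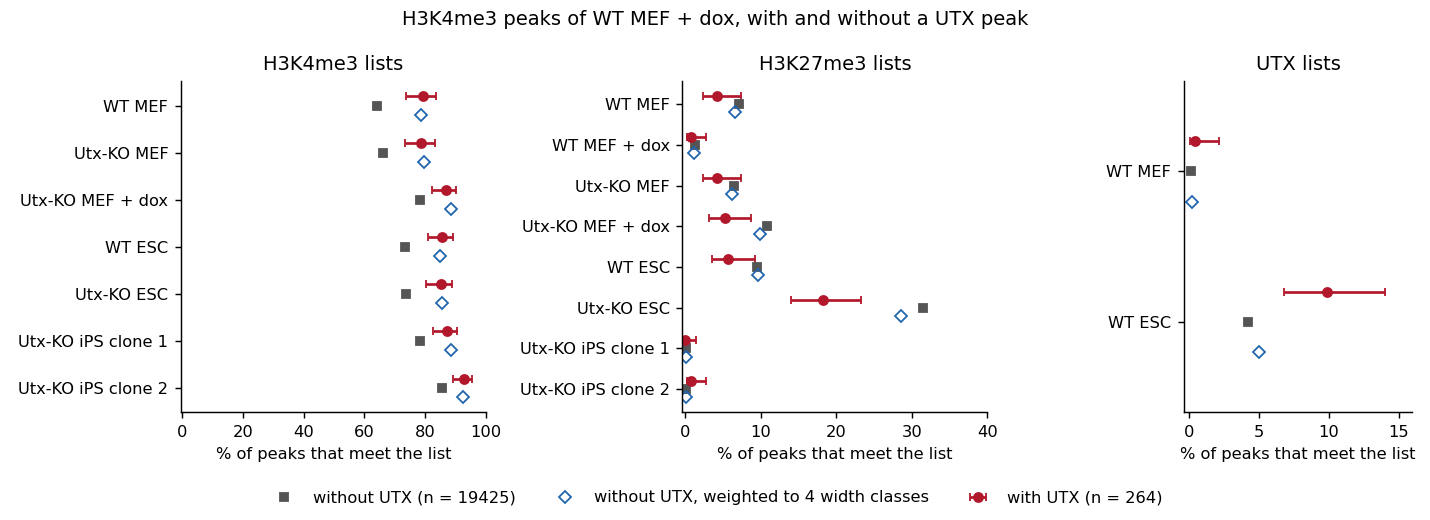
Share of H3K4me3 peaks of dox-treated WT MEF that meet a peak of each other list (horizontal axis, percent), for the 264 peaks with UTX (circles, bars are 95% Wilson intervals), the 19425 without UTX (squares) and the latter weighted to 4 width classes (diamonds). In the H3K4me3 lists the diamonds lie inside the intervals of the circles, while for H3K27me3 in dox-treated Utx-KO MEF (5.30% against 9.86%), WT ESC (5.68% against 9.62%) Utx-KO ESC (18.2% against 28.5%) and clone 2 (0.758% against 0.137%), and for UTX in WT ESC (9.85% against 4.97%), they lie outside.

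By width class, the H3K4me3 peak was found in untreated WT MEF for 115 of 123 UTX-carrying peaks of at least 3239 bp (93.5%), 63 of 75 between 2380 and 3238 bp (84.0%), 28 of 42 between 1646 and 2379 bp (66.7%) and 3 of 24 of at most 1645 bp (12.5%). Without UTX the shares in the same order were 91.4, 86.5, 61.0 and 19.1%. In dox-treated Utx-KO MEF the narrowest class stood out: 4 of the 24 narrow peaks with UTX had H3K4me3 (16.7%), against 41.1% of the narrow peaks without UTX. That difference was -24.4 points (interval -34.5 to -5.16), and the class was singled out after its values were seen. The 24 peaks had a median H3K4me3 score of 86.2, and narrow peaks without UTX one of 96.3.

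Taking untreated WT MEF, WT ESC and dox-treated Utx-KO MEF together, 198 of the 264 H3K4me3 peaks were found in all 3 (75%, 69.4 to 79.8). Without UTX the share was 58.0%, or 74.1% after weighting to the width classes, which lies inside that interval. The median width of the 198 was 3535 bp and their median score 2611. Another 16 were found in WT ESC and in dox-treated Utx-KO MEF but not in untreated WT MEF (6.06%, against 9.79% without UTX and 7.60% after weighting). A further 12 were in WT ESC but in neither of the other lists, 11 in untreated WT MEF but not in WT ESC, and 4 in dox-treated Utx-KO MEF alone of the 3. The shares of the 12, 11 and 4 were 4.55, 4.17 and 1.52%. Without UTX they were 5.25, 5.98 and 5.53%, or 3.10, 4.22 and 3.06% after weighting. The remaining 23, in none of the 3, were narrower (median 1519 bp) and weaker (median score 141). The same group made up 15.1% of peaks without UTX, or 7.66% after weighting to the width classes, against 8.71% (5.88 to 12.7) of those with UTX.

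H3K4me3 with UTX was missing from all 5 other fibroblast and ESC lists at 17 sites (6.44%, background 13%). Their H3K4me3 scores ranged from 64.6 to 1944 with a median of 139, and 8 were under 100. UTX scores at these sites ran from 50.3 to 82.1. The site with by far the strongest H3K4me3 was chr17:31916656-31917201 (UTX score 71.9), on a peak of 4934 bp with a score of 1944 that had no counterpart in any other list. The 4 with the highest UTX scores had H3K4me3 scores of 66.1 at chr6:3151297-3151661 (UTX score 82.1), 75.2 at chr11:110263404-110264218 (76.0), 296 at chr15:77086980-77087602 (75.9) and 180 at chr13:30203129-30203630 (75.8). The first of them had H3K4me3 in both iPS clones and the other 3 in neither.

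The H3K4me3 peaks that carried UTX were wide. Their median width was 3150 bp (interval 2951 to 3341) with quartiles of 2373 and 4331 bp, and peaks without UTX had a median of 2369 bp (2351 to 2389). A long peak has more room to meet a UTX peak, so part of this is fixed by the choice of sites. Weighting every H3K4me3 peak by its length plus the median UTX width gave a median of 2872 bp, below the interval for the sites with UTX. With the higher-scoring 50% of UTX peaks the median at their sites was 2938 bp and its interval (2816 to 3175) included 2872 bp, so the excess beyond length was not seen there. Over the whole UTX list, UTX-carrying H3K4me3 peaks per Mb of H3K4me3 rose with width, from 3.86 and 4.24 in the 2 narrower classes to 5.47 and 5.56 in the wider. More than 5000 bp was reached by 42 of the 264 (15.9%) and by 5.53% of the peaks without UTX. An H3K4me3 score of 3100 or more, where many peaks share the value 3100, was reached by 82 (31.1%) and by 10.8%.

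The 5 widest peaks were also wide in dox-treated Utx-KO MEF, less so in untreated WT MEF and ESC. The widest, under the UTX peak chr12:55288499-55289175, measured 19109 bp with dox in WT cells, 12434 bp with dox in Utx-KO cells, 5119 bp in untreated WT MEF and 3484 bp in WT ESC. At chr6:31503846-31504381 the widths were 17080 and 6316 bp with dox in WT and Utx-KO cells and 2941 bp in WT ESC, and untreated WT MEF had no H3K4me3. This site carried H3K27me3 in untreated fibroblasts of both genotypes, in dox-treated Utx-KO MEF and in ESC of both genotypes. The 3 others, at chr3:87949282-87949877, chr15:77664575-77665227 and chr7:80696476-80697081, measured 13994, 10732 and 10305 bp in dox-treated WT MEF and 9468, 10327 and 9369 bp in dox-treated Utx-KO MEF. In untreated WT MEF they measured 6266, 8104 and 8287 bp and in WT ESC 5862, 3551 and 5380 bp.

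At the same sites the called peaks were narrower without dox, as in the lists as a whole. Median widths over all peaks were 1118 bp in untreated WT MEF, 2379 bp in dox-treated WT MEF and 3063 bp in dox-treated Utx-KO MEF. With 1 library each and unknown depth, called widths need not give the extent of the mark. Where untreated WT MEF had H3K4me3, its summed width was a median of 1861 bp, and the median ratio to the dox-treated width was 0.598 (0.532 to 0.624), with all 209 sites narrower. For peaks without UTX the ratio was 0.594 (0.589 to 0.598). Several separate peaks of untreated WT MEF lay under 1 dox-treated peak at 88 of the 209 sites (42.1%). In WT ESC the median width was 2923 bp and the ratio 0.897 (0.854 to 0.938). Dox-treated Utx-KO MEF had a median of 3621 bp and a ratio of 1.08 (1.06 to 1.10), being wider than WT at 153 of 229 sites and narrower at 76. Peaks without UTX had a ratio of 1.16 (1.16 to 1.17). This ratio fell with width in peaks without UTX, from 1.43 in the narrowest class to 1.06 in the widest. In the widest class it was 1.03 (0.971 to 1.06) with UTX and 1.06 (1.05 to 1.07) without.

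**Figure D3:**
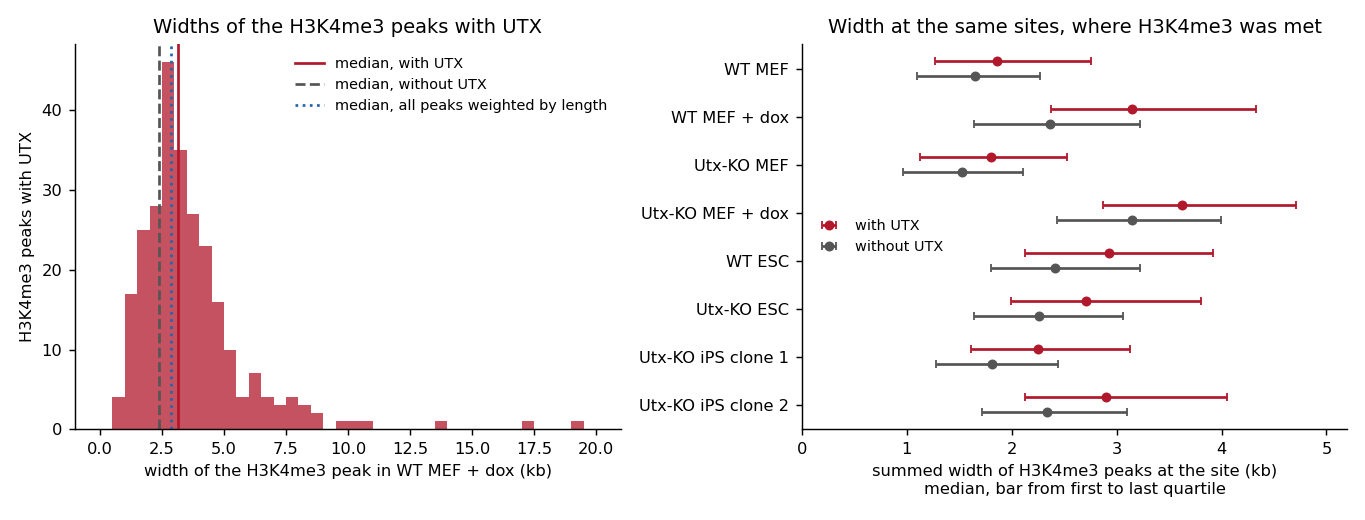
Left, widths of the 264 UTX-carrying H3K4me3 peaks in dox-treated WT MEF (kb), with their median of 3150 bp, the median of 2369 bp without UTX and the length-weighted median of 2872 bp as vertical lines. Right, summed width (kb, median with quartiles) of the H3K4me3 peaks that each list has at the sites it shares. Widths are smallest in the untreated fibroblasts and largest in dox-treated Utx-KO MEF, with and without UTX.

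UTX peaks lay all along the H3K4me3 peaks. The UTX centre was a median of 844 bp from the H3K4me3 centre (quartiles 409.5 and 1413 bp), or 0.587 of the way from the centre to the edge. Of the 267 UTX peaks, 55 (20.6%) were in the innermost 25% of that distance, 55 in the next 25%, 71 (26.6%) in the next and 45 (16.9%) in the outermost, and 41 (15.4%) had their centre outside. An even spread along the peak would put equal numbers in the 4 zones, and a rule of 1 bp also admits centres outside the peak. Whether the positions differ from random placement under that rule was not tested. In the widest class the median distance was 1266 bp and in the narrowest 297 bp, at relative positions of 0.607 and 0.589.

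**Figure D4:**
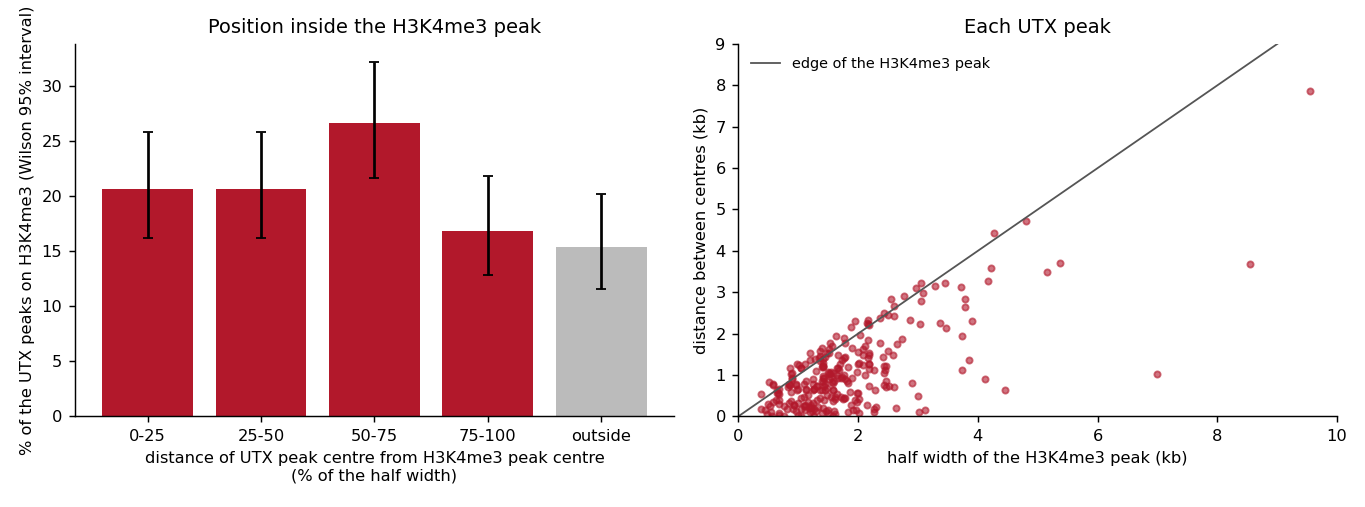
Left, share of the 267 UTX peaks (percent, bars are 95% Wilson intervals) by the distance of their centre from the centre of the H3K4me3 peak, as a percentage of the centre-to-edge distance. Right, distance between the centres (kb) of each UTX peak against the centre-to-edge distance of its H3K4me3 peak (kb), where points above the line have their centre outside. No zone holds most of the UTX peaks, and 41 have their centre outside.

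UTX also stood on parts of the peak where no H3K4me3 peak was called in untreated WT MEF. Among the 210 UTX peaks whose H3K4me3 peak was shared with untreated WT MEF, 147 touched the untreated peak themselves and 63 lay on the part of the dox-treated peak beyond it. With dox-treated Utx-KO MEF, whose peaks were wide, 219 of 231 touched and 12 did not. Base by base, untreated WT MEF H3K4me3 covered 47.4% of the UTX sequence inside H3K4me3 and 47.7% of the whole UTX-carrying H3K4me3 peaks. For dox-treated Utx-KO MEF these values were 79.2 and 83.3%, and for WT ESC 64.9 and 67.8%. The bases under UTX were covered at rates close to those of the peaks around them.

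H3K27me3 was rare at these sites. In dox-treated Utx-KO MEF, 14 of the 264 H3K4me3 peaks met H3K27me3 (5.30%, interval 3.18 to 8.70; background 10.7%). At 8 of them the UTX peak itself met it. Without UTX the share was 10.8%, a difference of -5.48 points (-7.64 to -2.05). Weighted to the width classes it was -4.55 points, to width and H3K4me3 score together -3.49, and to where else the H3K4me3 was found -3.16. With the 938 highest-scoring H3K27me3 peaks it was -2.67 points (-3.64 to -0.339). With the higher-scoring 50% of UTX peaks it was -4.03 points and the interval reached past 0 (-7.08 to 1.19).

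The other H3K27me3 lists gave low counts at these sites as well. Untreated WT MEF had 11 (4.17%, 2.34 to 7.31; background 7%), untreated Utx-KO MEF 11 (background 6.42%) and WT ESC 15 (5.68%, background 9.48%). Dox-treated WT MEF had 2 (0.758%, background 1.2%) in a short list of 938 peaks, against 4335 peaks in dox-treated Utx-KO MEF. With the 938 highest-scoring peaks of the Utx-KO list the share there was 1.52% (0.591 to 3.83). Cutting a list can only lower or keep its share, and why the 2 lists differ in length was not tested. Scores of at least 100 were reached by 22 peaks of the WT list and 1759 of the Utx-KO list. The long Utx-KO ESC list of 36231 peaks met 48 sites (18.2%, 14 to 23.3; background 31.3%), which was 13.3 points fewer than without UTX (interval of the difference -17.5 to -8.16). Weighted to width and H3K4me3 score the difference was -8.41 points. With the 938 highest-scoring peaks of that list it was -2.34 points and the interval reached past 0 (-3.73 to 0.399). The Utx-KO ESC list met 14.6% of the UTX peaks themselves, against 3.39% of the UTX peaks away from H3K4me3. Any of the 8 H3K27me3 lists met 57 of the 264 sites (21.6%), against 33.7% of the H3K4me3 peaks without UTX. Clone 1 met none (background 0.0609%). Clone 2 ran the other way: its 737 H3K27me3 peaks met 2 of the 264 (0.758%, 0.208 to 2.72; background 0.132%), which was 0.634 points more than without UTX (0.0812 to 2.60) and above the width-weighted 0.137%.

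H3K27me3 in dox-treated Utx-KO MEF was most frequent, with and without UTX, where H3K4me3 was found in WT ESC and dox-treated Utx-KO MEF and not in untreated WT MEF. It lay at 7 of those 16 sites (43.8%, 23.1 to 66.8). Peaks of the same pattern without UTX had it at 38.6% (36.4 to 40.8). Among the 198 sites with H3K4me3 in all 3 lists, 4 had it (2.02%, 0.788 to 5.08), against 4.56% without UTX. None of the 23 sites in none of the 3 lists had it (interval 0 to 14.3%). The share without UTX was 9.97%, which lies inside that interval.

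The 14 sites had H3K27me3 scores from 52.8 to 1218 in dox-treated Utx-KO MEF, with a median of 125. Of these sites, 12 also had H3K4me3 in the same cells, 13 had it in WT ESC and 5 in untreated WT MEF. H3K27me3 was present at 5 of them in untreated WT MEF, at 7 in untreated Utx-KO MEF, at 8 in WT ESC and at 11 in Utx-KO ESC. None had it in dox-treated WT MEF, whose list held only 938 peaks, and 7 had it in no other fibroblast list. Of the H3K4me3 peaks without UTX, 10.8% had H3K27me3 in dox-treated Utx-KO MEF. Of the same peaks, 9.99% had it there and not in dox-treated WT MEF, and 3.62% there and in no other fibroblast list. With UTX these shares were 5.30, 5.30 and 2.65%. At the 14 sites H3K4me3 in dox-treated WT MEF had a median width of 2474 bp and a median score of 751, against 3160 bp and 2066 at the other sites with UTX.

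The strongest of the 14 was chr11:96149272-96149853 (UTX score 53.6). H3K27me3 there scored 1218 in dox-treated Utx-KO MEF over peaks of 12307 bp, 416 in untreated Utx-KO MEF, 131 in untreated WT MEF and 150 in WT ESC, and was not found in dox-treated WT MEF or Utx-KO ESC. H3K4me3 at the site was 6576 bp wide with a score of 3165 in dox-treated WT MEF, and 2823 bp wide with a score of 174 in dox-treated Utx-KO MEF. The H3K4me3 peak was thus wider in the WT library. Of the dox-treated libraries H3K27me3 was found in the Utx-KO one, whose list was longer (4335 against 938 peaks). The UTX peak there was 582 bp wide and overlapped the H3K4me3 peak by 424 bp at its edge.

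At chr4:99327577-99328123 the H3K27me3 score was 355 in dox-treated Utx-KO MEF, 703 in untreated WT MEF and 511 in untreated Utx-KO MEF. H3K4me3 there was 1735 bp wide with dox in WT cells and 5455 bp in WT ESC, and had no peak with dox in Utx-KO cells. At chr4:148181070-148181648 H3K27me3 scored 355 in dox-treated Utx-KO MEF, 490 in untreated WT MEF and 1460 in Utx-KO ESC, and H3K4me3 had nearly the same width in dox-treated WT (4173 bp) and Utx-KO MEF (4049 bp). At chr19:5555614-5556121 the H3K4me3 peak measured 6098 and 2664 bp in these 2 states, and H3K27me3 scored 252 with dox in Utx-KO cells. The last named site, chr8:11728715-11729385, had H3K27me3 scores of 148 in dox-treated Utx-KO MEF and 772 in Utx-KO ESC and no H3K27me3 in the other lists.

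**Figure D5:**
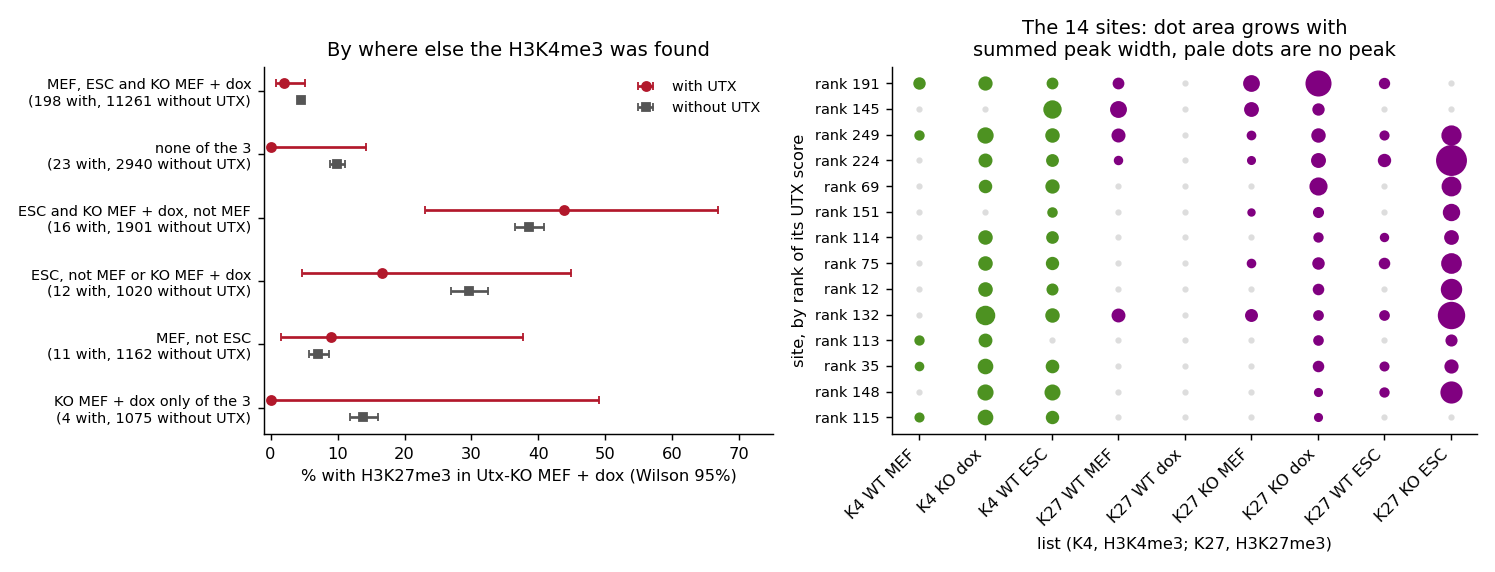
Left, share of H3K4me3 peaks of dox-treated WT MEF with H3K27me3 in dox-treated Utx-KO MEF (percent, bars are 95% Wilson intervals), with and without UTX, by where else the H3K4me3 was found among untreated WT MEF, WT ESC and dox-treated Utx-KO MEF. Right, the 14 sites with that H3K27me3, 1 row each in order of its score, and their H3K4me3 and H3K27me3 in 9 lists, where dot area grows with summed peak width. The column for dox-treated WT MEF H3K27me3, a list of only 938 peaks, is empty, and 43.8% against 38.6% is the highest pair on the left.

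UTX itself seldom recurred at these sites. None of the 267 UTX peaks met a UTX peak of untreated WT MEF, a list of 372 peaks. In WT ESC 11 did (4.12%, 2.32 to 7.23), against 14 of the 3273 UTX peaks away from H3K4me3 (0.428%) and a background of 0.706%. The difference was 3.69 points (1.87 to 6.80). On the level of H3K4me3 peaks, 26 of the 264 carried an ESC UTX peak somewhere (9.85%, 6.81 to 14; background 4.26%), 15 of them only at another place than the fibroblast UTX. This was 5.66 points more than without UTX (2.61 to 9.86), 4.87 after weighting to the width classes and 1.63 when ESC UTX peaks had to score at least 100.

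The 11 recurring UTX peaks had fibroblast scores from 50.2 to 107 with a median of 68.9, above the list's median of 56.0, and 4 of them were among the leading 10. H3K4me3 was found at 8 of the 11 in WT ESC and at 6 each in untreated WT MEF and dox-treated Utx-KO MEF. Those at chr11:61317911-61319063, chr5:136163534-136164546 and chr8:125760470-125761006 had H3K4me3 in all 7 other lists, with ESC UTX scores of 108, 63.1 and 59.5. By contrast chr6:3151297-3151661 (ESC UTX score 130) had it in no other fibroblast or ESC list. At chr11:116142838-116143501 (80.7) H3K4me3 measured 3188 bp with dox and 541 bp without in WT cells. H3K27me3 was found there in untreated fibroblasts of both genotypes and in Utx-KO ESC, where it scored 1204 over 5942 bp. Neither dox-treated list had it, and that of WT cells held only 938 peaks with a median score of 55.9.

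The highest ESC UTX score, 1737, was at chr17:39979741-39986263, the 6523 bp wide UTX peak. Its H3K4me3 with dox in WT cells (score 330) had a counterpart in 2 other lists, and it was 1 of the 2 sites with H3K27me3 in dox-treated WT MEF (score 616). The other such site, chr16:11143998-11144632 (UTX score 94.0), also met an ESC UTX peak. Peak calls of UTX, H3K4me3 and H3K27me3 thus overlapped at both in dox-treated WT MEF. At the wide site every list with a peak gave nearly the same width, from 6127 to 6733 bp, whatever the antibody. Its scores for UTX in WT ESC and H3K27me3 in dox-treated WT MEF were the highest of those lists. At the chr16 site H3K27me3 scored 206 in dox-treated WT MEF, where only 22 peaks of the list reached 100. Whole-cell extracts were not analysed, so whether the signal at either of the 2 sites depends on the antibodies was not tested. Without the wide peak the share with ESC UTX was 9.51% and the share with H3K27me3 in dox-treated Utx-KO MEF 5.32%.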

How the data were processed

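The authors deposited 1 peak list per immunoprecipitated sample, with each peak's position and score. MACS 1.4.1, Bowtie 0.12.5, CASAVA 1.8.2 and mm9 are named, per the submitters' processing notes, and settings, roles and the control of a list are not given in the sources used here. Whole-cell extracts were not analysed here. Read depth is unknown, and a score depends on it, so scores describe peaks within a list. One mitochondrial peak was left out.

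Lists were compared by overlap of at least 1 bp, on the whole H3K4me3 peak of dox-treated WT MEF. Background shares are over all its 19689 peaks. Shares have Wilson 95% intervals, differences combine both, and medians have exact intervals from order statistics. Width classes are quartiles of that list. The members and lists were chosen with earlier results of these data known. Regions named are the 10 highest UTX scores, up to 10 meeting another UTX list, and 5 each by H3K4me3 width, by UTX score without other fibroblast or ESC H3K4me3, and by H3K27me3 score, of which the text gives a selection. Sequences are not given, since no mm9 genome was used here. Overlaps were tested on simulated data in 5 runs and were equal to those of bedtools 2.31.1 for 38 of 38 pairs of lists. Python 3.11.15, pandas 2.3.3 and scipy 1.17.1 were used.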

Additional observations from a re-analysis of the deposited data

How the results depend on the processing

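With the higher-scoring 50% of the UTX list, 150 UTX peaks lay on H3K4me3 and the median H3K4me3 width was 2938 bp (2816 to 3175). Scoring the UTX peak itself instead of the H3K4me3 peak gave shares of 55.1% in untreated WT MEF, 70.4% in WT ESC and 82.0% in dox-treated Utx-KO MEF, 3.00 and 2.25% for H3K27me3 in dox-treated Utx-KO and untreated WT MEF, and 4.12% for ESC UTX. These are smaller because a smaller interval is scored. With scores of at least 100 in the other list, the shares were 80.7% (H3K4me3, WT ESC), 3.03% (H3K27me3, dox-treated Utx-KO MEF), 2.65% (ESC UTX) and 13.3% (H3K27me3, Utx-KO ESC). The differences from peaks without UTX were 12.0 points for H3K4me3 in dox-treated Utx-KO MEF and 1.63 for ESC UTX. With 16157 H3K4me3 or 938 H3K27me3 peaks per list, the shares were 91.9% (H3K4me3, dox-treated Utx-KO MEF), 1.52% (H3K27me3, dox-treated Utx-KO MEF), 1.52% (H3K27me3, untreated WT MEF) and 2.65% (H3K27me3, Utx-KO ESC). The differences were then 9.0 (H3K4me3, untreated WT MEF), 5.78 (WT ESC), 2.03 (dox-treated Utx-KO MEF), -2.34 (H3K27me3, Utx-KO ESC) and -2.67 (H3K27me3, dox-treated Utx-KO MEF). The intervals of 2.03 (-2.09 to 4.88) and of -2.34 (-3.73 to 0.399) included 0. The H3K4me3 differences with 4 width classes, with 20, and with 4 width by 4 score classes were 0.58, 0.66 and -0.56 in untreated WT MEF, 0.54, 0.89 and -0.079 in WT ESC, and -1.75, -1.47 and -2.02 in dox-treated Utx-KO MEF. The 20 classes, the score classes, the weighting by other H3K4me3, the removal of the wide UTX peak, and every alternative for ESC UTX and Utx-KO ESC were chosen after seeing the data. The share in the iPS clones ranged from 87.1 to 92.8%. The other 110 of 141 recomputed values stayed within the interval, or for counts 1.5 times, of the value given. The 110 include 2 values with 1 clone left out, which were set against 1 SD of the clones. With n = 2 that limit cannot be passed, so these 2 tell nothing. No paired analysis was possible because each state and mark had 1 library. Unknown depth limits every absence of a peak and every comparison of peak widths between lists.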

Other observations

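The 267 UTX peaks on H3K4me3 were spread over 20 chromosomes. Chromosome 2 held 32 (12.0%), chromosome 11 held 26 (9.74%) and chromosome 17 held 21 (7.87%), while these chromosomes held 8.11, 7.87 and 4.69% of all H3K4me3 peaks of the cells. Chromosome X held 2 (0.749%), against 2.97% of the H3K4me3 peaks and 0.917% of the UTX peaks away from H3K4me3.

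Another UTX peak lay within 5000 bp, centre to centre, for 11 of the 267 (4.12%) and for 75 of the 3273 away from H3K4me3 (2.29%). The 3 H3K4me3 peaks with 2 UTX peaks were chr16:30171706-30172467 (762 bp wide, UTX scores 104 and 68.9), chr12:52789929-52794785 and chr2:52816902-52819534, the last 2 chosen after their values were seen. The first of the 3 met an ESC UTX peak, and the other 2 did not.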
